A study of Danio rerio with 6 samples.

Results

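The Sox and Pou genes are 2 families of transcription factor genes, and their levels were measured in whole zebrafish embryos 48 h after fertilization. The members were chosen by their symbols, as every gene whose symbol starts with sox or pou and a digit, from probe sets that carry exactly 1 symbol. This gave 32 of 11304 genes, of which 20 are Sox and 12 are Pou genes. Measured values entered the choice through the deposited table, from which dim probe sets had been removed: every probe set in it reached a log2 intensity of 8.45 on at least 1 array. The families were also put forward with earlier results of the same comparison in view, among them those of sox12, sox2 and sox3. Counts over the families are therefore a description, and no test was made for a family as a whole. In the tested group, 3 samples came from embryos injected at the single-cell stage with MO1, a morpholino against setb, and in the control group 3 samples came from embryos injected with a control morpholino. A morpholino is a modified antisense oligonucleotide that blocks translation or splicing of its target transcript, and setb is a zebrafish counterpart of SET, whose protein escorts histones and inhibits the phosphatase PP2A. The strain, the dose and the sequence of MO1 were not given in the sources used here, and each group holds a single morpholino. Embryos had been scored as normal-like, mild or moderate, and the labels do not tell which class went into which sample.

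Sox proteins bind DNA through an HMG box, which bends the double helix, and Pou proteins through a POU-specific domain joined to a homeodomain. Members of the families often bind next to each other, as Sox2 does with Pou partners on enhancers of stem cells and neural progenitors in mammals. In the developing nervous system SoxB1 factors keep cells in the progenitor state, SoxB2 factors oppose them, and SoxC factors switch on genes of young neurons. SoxE factors act in neural crest, glia and cartilage, SoxF factors in vessels, Pou3 factors in the brain and Pou4 factors in retinal ganglion cells and sensory neurons.

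Each sample was hybridised to 1 Affymetrix array, and levels are log2 intensities after RMA, with array medians of 9.47 to 9.49. Across probe sets, arrays correlated at 0.964 to 0.990 within a group and at 0.884 to 0.930 between groups. Of 10 genes taken to mark tissues of a whole embryo, 9 were in the table, and fabp10a of liver was not analysed here. The lens gene cryaa (−1.46 ± 0.15) and elavl3 of neurons (−0.49 ± 0.06) fell, and he1.1 of the hatching gland (1.03 ± 0.07) and myl7 of the heart (0.31 ± 0.08) rose. The muscle gene mylpfa, krt4 of epidermis, hbae1.1 of red cells, col2a1a of cartilage and cdh5 of vessels did not pass. The part of these tissues in the changes of the Sox and Pou genes was not tested. The transcript of setb was at 12.69, 12.60 and 12.66 in setb MO1 embryos and at 12.51, 12.48 and 12.38 in control embryos, so it was not lower after injection. It was higher by 0.19 ± 0.07 on the log2 scale (SE, n = 3 and 3, limma adjusted p = 0.0465), a call kept without control replicate 1 and lost when any other array was left out (0.0753 to 0.133). The labels do not say how MO1 acts, and these levels therefore do not check them. The labels do not state whether the replicates are separate clutches, and the p-values therefore measure only how these samples vary, which may be technical variation. The number of arrays limits the precision.

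Most Sox and Pou genes were lower in setb MO1 embryos. Of the 32 genes, 20 fell and 2 rose, at an adjusted p under 0.05 over all genes in limma, while 10 did not pass. Over all 11304 genes 44.7% passed, with 20.8% lower and 23.9% higher. The 20 that fell include sox12, known beforehand, and 4 genes whose direction the table's filter fixed. The median log2 change was −0.44 over the 32 genes and 0.02 over all genes. The values of the groups did not overlap in 24 of the 32 genes, against 58.0% of all genes. These 24 include sox12 and also pou4f2, sox14, sox21b and pou3f1, whose direction the table's filter fixed. A change of at least 2-fold downward was found in 5 of the 32 genes, namely sox12, pou4f2, pou4f4, sox14 and pou2f2b, against 1.80% of all genes. Of these, sox12 was known when the families were put forward, and the table's filter fixed the direction of pou4f2 and sox14. In samples of whole embryos, fewer cells of a type and less RNA per cell cannot be told apart.

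The table's filter on dim probe sets bears on 4 of these genes. The genes pou4f2, sox14, sox21b and pou3f1 reached 8.45 in all 3 control arrays and in no setb MO1 array, so that they stand in the table through their control levels alone and had to be lower after setb MO1. Their changes are given without a p. Over all genes 644 stand in it through the control arrays alone and 564 through the setb MO1 arrays alone. Among the 28 members that reached 8.45 in both groups 16 fell, against 18.1% of the 10096 such genes, a comparison added after the values had been seen. The 16 include sox12, which was known beforehand. The lowest of the members' highest values was 8.81, that of pou3f2b, the gene closest to the filter.

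**Figure D1:**
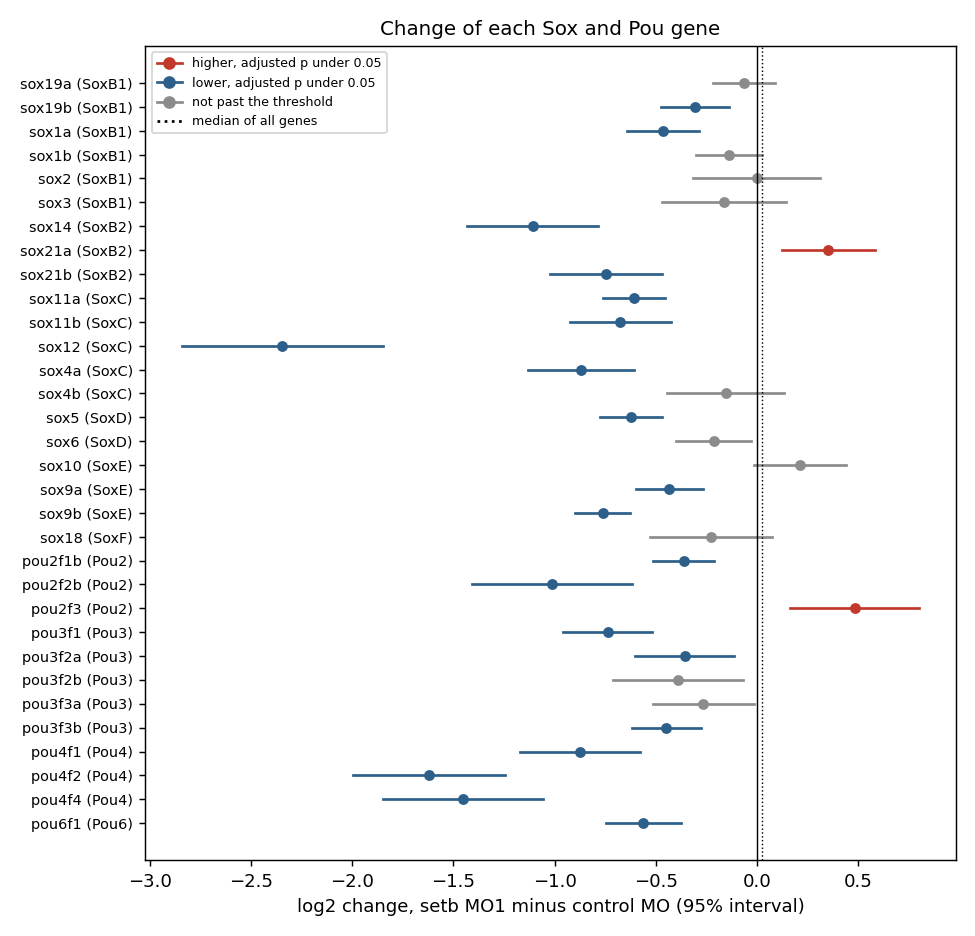
Log2 change of each of the 32 Sox and Pou genes, setb MO1 minus control, with its 95% interval from limma (n = 3 and 3), by subgroup, and the median of all genes as a dotted line. Points of 20 genes are marked as lower and 2 as higher, and sox12 lies farthest from 0 at −2.34. Among the lower, the table's filter fixed the direction of pou4f2, sox14, sox21b and pou3f1, and sox12 was known beforehand.

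The SoxC genes are activators known to switch on genes of differentiating neurons. All 5 listed genes of the subgroup were measured, and 4 of them fell, sox12 among them, against 20.8% of all genes. The median change of the subgroup was −0.68. The gene sox12 was at 9.06, 9.37 and 8.47 in setb MO1 embryos, against 11.48, 11.26 and 11.19 in control embryos. The groups lay far apart, although the setb MO1 arrays spread over 0.89 and the control arrays over 0.29. The change was −2.34 ± 0.21 (SE, n = 3 and 3), a 5.08-fold lower level, and it is given without a p because it was known when the families were put forward.

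The gene sox4a was at 9.64, 9.77 and 9.82 in setb MO1 embryos and at 10.78, 10.67 and 10.38 in control embryos, a change of −0.87 ± 0.11 (SE, limma adjusted p = 0.000943). The gene sox11a was at 11.50, 11.38 and 11.49 in setb MO1 embryos and at 12.08, 12.10 and 12.02 in control embryos (−0.61 ± 0.07, limma adjusted p = 0.000491). Its duplicate sox11b was at 9.77, 9.71 and 9.52 in setb MO1 embryos and at 10.49, 10.38 and 10.16 in control embryos (−0.68 ± 0.11, limma adjusted p = 0.00218). In these 3 genes every setb MO1 array was below every control array. The remaining SoxC gene, sox4b, was at 9.15, 9.27 and 9.62 in setb MO1 embryos and at 9.41, 9.51 and 9.59 in control embryos. Its groups overlapped through setb MO1 replicate 3, the highest of the 6 values, and its change of −0.16 ± 0.12 did not pass (95% interval −0.44 to 0.13). Without that array it passed (−0.29, limma adjusted p = 0.0417).

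The Pou4 genes, the Brn3 genes of mammals, had a median change of −1.45. All 3 measured genes of 4 listed fell, against 20.8% of all genes, and pou4f3, known from hair cells, was not analysed here. The gene pou4f2, whose mouse counterpart is required for many retinal ganglion cells, was at 7.87, 7.85 and 7.96 in setb MO1 embryos, against 9.88, 9.47 and 9.19 in control embryos. The setb MO1 arrays lay within 0.11 of each other and the control arrays spread over 0.69. The change was −1.62 ± 0.16 (SE, 3.08-fold), with a direction that the filter fixed.

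The gene pou4f4 was at 8.91, 9.07 and 9.47 in setb MO1 embryos and at 10.88, 10.43 and 10.50 in control embryos (−1.45 ± 0.17, 2.74-fold, limma adjusted p = 0.000657). The gene pou4f1, a marker of sensory neurons and of the habenula, was at 8.91, 9.12 and 9.33 in setb MO1 embryos and at 10.19, 9.92 and 9.88 in control embryos (−0.88 ± 0.13, limma adjusted p = 0.00157). Neither gene had overlapping groups, and both had setb MO1 replicate 3 as the highest setb MO1 array and control replicate 1 as the highest control array.

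The SoxB2 genes encode repressors that oppose SoxB1 factors, and they moved in both directions, with 2 lower and 1 higher of 3. Over all genes 20.8% were lower and 23.9% higher. The gene sox14, known from interneurons of brain and spinal cord, was at 7.92, 8.0 and 8.14 in setb MO1 embryos, against 9.43, 9.06 and 8.89 in control embryos. Its change was −1.11 ± 0.14 (SE, 2.16-fold). The gene sox21b, a factor of neural progenitors, was at 7.96, 8.10 and 7.77 in setb MO1 embryos and at 8.87, 8.69 and 8.51 in control embryos (−0.75 ± 0.12). Both genes were under 8.45 on all setb MO1 arrays, so that the filter fixed their direction.

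Its duplicate sox21a was higher, at 9.22, 9.36 and 9.35 in setb MO1 embryos and at 8.99, 8.76 and 9.11 in control embryos, and the groups did not overlap. The rise of 0.35 ± 0.10 passed (limma adjusted p = 0.0235). It no longer passed when control replicate 2 (0.26, limma adjusted p = 0.0713), setb MO1 replicate 2 (0.33, 0.0760) or setb MO1 replicate 3 (0.33, 0.0700) was left out.

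The SoxB1 genes, which hold neural cells in the progenitor state, had the median change closest to 0 of the 10 subgroups. All 6 were measured, and the median was −0.15. Of the 6, 2 fell, against 20.8% of all genes, and 4 did not pass. The gene sox1a, expressed in lens and nervous system, was at 8.49, 8.54 and 8.68 in setb MO1 embryos and at 9.10, 8.99 and 9.01 in control embryos (−0.46 ± 0.08, limma adjusted p = 0.00245). The gene sox19b, whose transcript is known to be supplied by the mother in zebrafish, was at 9.25, 9.27 and 9.39 in setb MO1 embryos and at 9.52, 9.62 and 9.68 in control embryos (−0.31 ± 0.07, limma adjusted p = 0.0122). The call on sox19b was lost without control replicate 2 (−0.30, limma adjusted p = 0.0506).

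The duplicates of these genes had smaller estimated changes, and the difference between duplicates passed for sox1 but not for sox19. The gene sox1b changed by −0.14 ± 0.07 (95% interval −0.30 to 0.03), and its groups did not overlap by a narrow margin, with the highest setb MO1 array at 10.004 and the lowest control array at 10.012. The gene sox19a changed by −0.06 ± 0.07 (95% interval −0.22 to 0.09). The best known progenitor gene, sox2, was at 10.54, 10.46 and 10.83 in setb MO1 embryos and at 10.38, 10.65 and 10.80 in control embryos, and sox3 was at 9.46, 9.33 and 9.78 in setb MO1 embryos and at 9.51, 9.82 and 9.73 in control embryos. The groups overlapped in both genes, and the 95% intervals of the change were −0.32 to 0.31 for sox2 and −0.47 to 0.14 for sox3. Changes within these intervals are compatible with the values.

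The SoxD and SoxE genes act together in cartilage, where Sox5 and Sox6 help Sox9 in mammals. The SoxD gene sox5 was at 10.88, 10.87 and 10.98 in setb MO1 embryos, against 11.56, 11.47 and 11.57 in control embryos (−0.62 ± 0.07, limma adjusted p = 0.000474). The gene sox6, known in zebrafish for repressing slow muscle genes in fast fibres, changed by −0.21 ± 0.08, which did not pass (limma adjusted p = 0.0604) although its groups did not overlap. It passed without control replicate 1 (−0.27, limma adjusted p = 0.0250). A second probe set of sox6 gave −0.22 ± 0.10. Of the SoxD list, sox13 was not analysed here.

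The SoxE gene sox9b, known from neural crest, retina and glia, had the smallest standard error of the 32 genes. It was at 10.82, 10.79 and 10.81 in setb MO1 embryos and at 11.53, 11.58 and 11.59 in control embryos (−0.76 ± 0.06, limma adjusted p = 0.000197). Its duplicate sox9a, needed for cartilage of the head, was at 11.05, 11.03 and 11.11 in setb MO1 embryos and at 11.42, 11.47 and 11.60 in control embryos (−0.43 ± 0.07, limma adjusted p = 0.00264). The neural crest gene sox10 did not move with them. It was at 9.49, 9.42 and 9.71 in setb MO1 embryos and at 9.26, 9.27 and 9.46 in control embryos, an overlapping difference of 0.21 ± 0.10 (95% interval −0.02 to 0.44) that did not pass. The SoxE genes sox8a and sox8b were not analysed here.

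The only measured SoxF gene of 4 listed was sox18, a factor of vascular and lymphatic endothelium. It was at 9.31, 9.26 and 9.72 in setb MO1 embryos and at 9.64, 9.56 and 9.78 in control embryos, and the groups overlapped through setb MO1 replicate 3. The change of −0.23 ± 0.13 did not pass, and without that array it passed (−0.37, limma adjusted p = 0.0194).

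The Pou3 genes are expressed in the developing brain and had a median change of −0.39. Of the 5 measured, 3 were lower, against 20.8% of all genes, and 2 did not pass. The gene pou3f1, the Oct6 gene of mammals, was at 7.98, 8.02 and 7.89 in setb MO1 embryos and at 8.53, 8.72 and 8.86 in control embryos (−0.74 ± 0.09), and the filter fixed its direction. The gene pou3f3b, a counterpart of mouse Brn1 of forebrain and kidney, was at 11.58, 11.57 and 11.60 in setb MO1 embryos and at 11.95, 12.00 and 12.15 in control embryos (−0.45 ± 0.07, limma adjusted p = 0.00237). The groups lay apart in both genes.

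Of the counterparts of mouse Brn2, which acts in hypothalamic neurons, pou3f2a was at 9.03, 8.90 and 9.11 in setb MO1 embryos and at 9.19, 9.38 and 9.54 in control embryos (−0.36 ± 0.10, limma adjusted p = 0.0273). It was the member closest to the threshold among those that fell, and its call was lost when control replicate 2 (−0.35, 0.0850) or 3 (−0.27, 0.0642) or setb MO1 replicate 1 (−0.37, 0.0642) or 2 (−0.30, 0.0929) was left out. The gene pou3f2b was just outside (−0.39 ± 0.14, limma adjusted p = 0.0515), with 8.07, 8.22 and 8.53 in setb MO1 embryos and 8.46, 8.73 and 8.81 in control embryos. It passed without control replicate 1 (−0.49, 0.0220) or setb MO1 replicate 3 (−0.52, 0.0186). The change of pou3f3a was −0.27 ± 0.11 (limma adjusted p = 0.0775), and it passed without the same control array (−0.36, 0.0204) or setb MO1 array (−0.35, 0.0440). The change was negative for all 5 genes, and for 47.1% of all genes in the table. The 5 include pou3f1, whose direction the filter fixed. Calls on pou3f2a, pou3f2b and pou3f3a turned on single arrays.

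The Pou2 genes, the Oct1 and Oct2 group of mammals, moved in both directions. The gene pou2f2b was at 9.57, 9.65 and 9.03 in setb MO1 embryos, against 10.27, 10.45 and 10.57 in control embryos (−1.01 ± 0.17, 2.02-fold, limma adjusted p = 0.00275). Setb MO1 replicate 3 was the lowest, as it was for sox12. The gene pou2f1b, a counterpart of the widely expressed Oct1, was at 10.44, 10.34 and 10.34 in setb MO1 embryos and at 10.79, 10.73 and 10.69 in control embryos (−0.36 ± 0.06, limma adjusted p = 0.00359).

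The gene pou2f3, known in mammals from epidermis and chemosensory tuft cells, was higher, at 9.29, 9.44 and 9.47 in setb MO1 embryos and at 8.70, 8.83 and 9.23 in control embryos. The groups were separated by a margin smaller than the control arrays' spread of 0.52. The rise of 0.48 ± 0.14 passed (limma adjusted p = 0.0236), and it did not pass without control replicate 2 (0.44, 0.0869), setb MO1 replicate 2 (0.46, 0.0709) or setb MO1 replicate 3 (0.45, 0.0722). The single Pou6 gene measured, pou6f1, whose mammalian counterpart is expressed in brain, was at 8.64, 8.72 and 8.69 in setb MO1 embryos and at 9.37, 9.23 and 9.12 in control embryos (−0.56 ± 0.08, limma adjusted p = 0.00138).

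**Figure D2:**
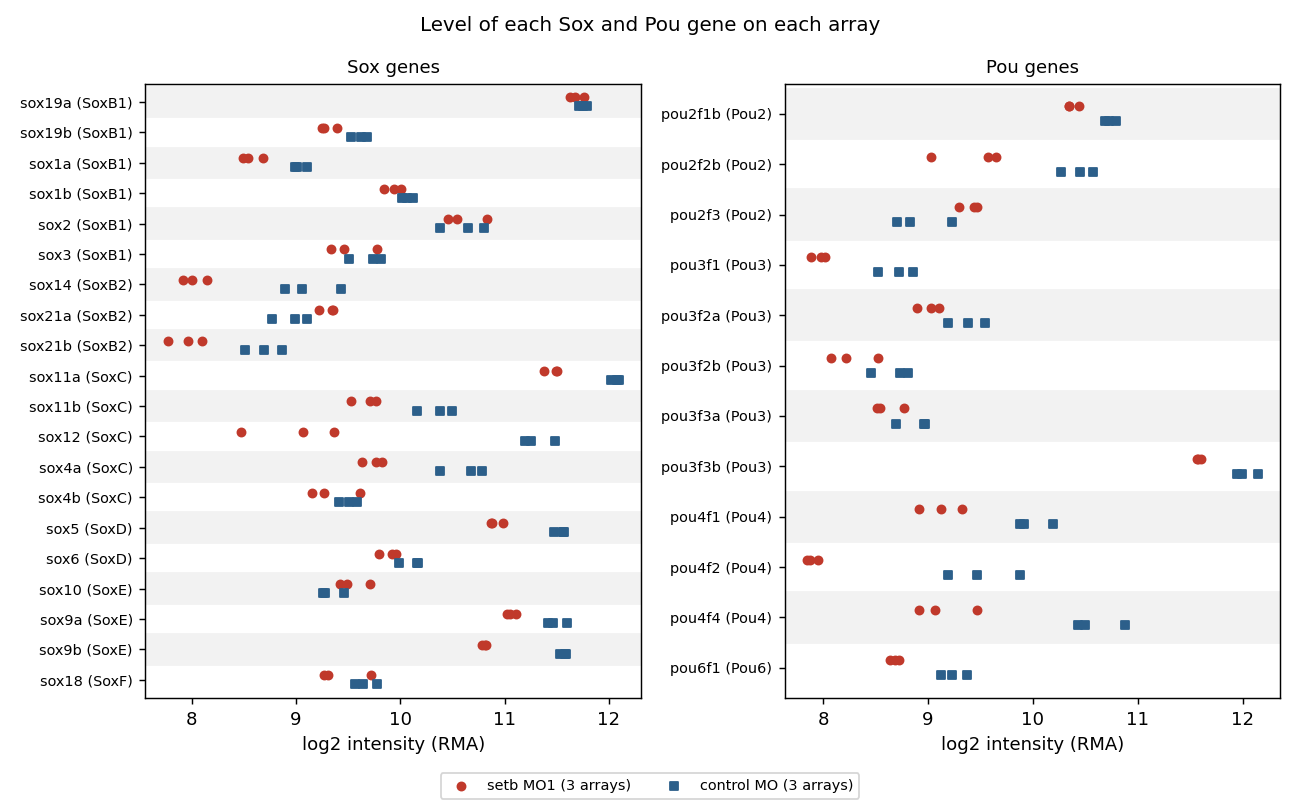
Log2 intensity of each Sox gene (left) and Pou gene (right) on every array, with circles for the 3 setb MO1 arrays drawn above squares for the 3 control arrays. Circles and squares do not overlap in 24 of the 32 genes. Of these, the table's filter fixed the direction of pou4f2, sox14, sox21b and pou3f1. Circles lie to the right only for sox10, sox21a and pou2f3 by their group means.

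Zebrafish carry many genes as duplicates from a genome doubling in the fish lineage, and 8 pairs of Sox and Pou duplicates were measured. Whether the 2 genes of a pair changed by different amounts was tested on the within-array difference of their log2 levels, together with all 1252 pairs of measured genes whose symbols differ only in a final a and b. The changes differed in 4 of the 8 pairs, and in 45.9% of all pairs. The pair furthest apart was sox21a and sox21b, at 0.35 and −0.75, and the signed difference was 1.1 ± 0.16. It is given without a p because the filter fixed the direction of sox21b, and the count of 4 includes this pair. Of the other 3 pairs, sox4a fell more than sox4b by 0.72 ± 0.15 on the log2 scale, with a signed difference of −0.72 (limma adjusted p = 0.00698). The difference was −0.33 ± 0.08 for sox1a minus sox1b (limma adjusted p = 0.0147) and 0.33 ± 0.08 for sox9a minus sox9b (limma adjusted p = 0.0108), where sox9b had the larger decrease.

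The difference for sox4 passed whichever single array was left out. That for sox1 was lost without control replicate 2 (−0.32, limma adjusted p = 0.0583) or setb MO1 replicate 1 (−0.28, 0.0552), and that for sox9 without control replicate 2 (0.31, 0.0535). The changes of sox19a and sox19b differed by 0.24 ± 0.09, which did not pass (limma adjusted p = 0.0619). The difference passed without control replicate 1 (0.31, 0.0273) or with array weights (0.33, 0.00111). In the fit of all probe sets such weights rested on control replicate 2 (58.9 against 0.207 to 0.803). For the other pairs the 95% interval of the difference was −0.19 to 0.33 for sox11a minus sox11b, −0.21 to 0.28 for pou3f2a minus pou3f2b and −0.05 to 0.41 for pou3f3a minus pou3f3b. Probe sets of close duplicates may share signal, which would make such differences look smaller.

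**Figure D3:**
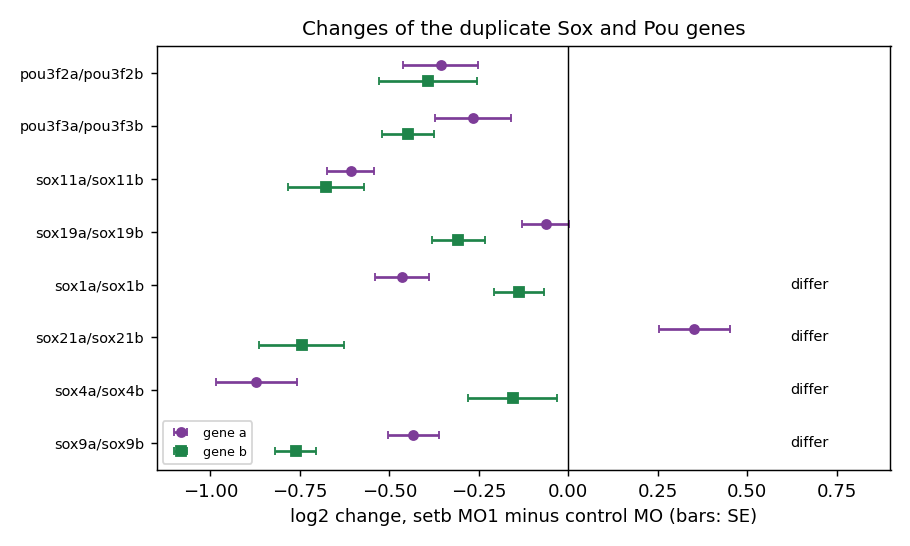
Log2 change of gene a (circles) and gene b (squares) of the 8 duplicate pairs, setb MO1 minus control, with bars for the SE (n = 3 and 3). The word differ marks the 4 pairs whose changes differed in limma, and sox21a and sox21b lie on opposite sides of 0. The table's filter fixed the direction of sox21b.

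Each subgroup was set beside genes of the tissues in which its members are known to act, from lists that hold no sox or pou gene. The lists were chosen with earlier results of these data known, and they serve as a description only. Their counts over whole lists are to be read against the 20.8% lower and 23.9% higher over all genes. The filter fixed the direction of listed genes that reached 8.45 in 1 group alone, and counts without these genes are given where they differ. Such counts of lower genes belong beside the 18.1% lower among the 10096 genes that reached 8.45 in both groups. The sizes of the reduced lists are not given, so the counts in them are not shares. Medians and mean levels are those of whole lists and include genes whose direction the filter fixed. Beside the SoxC genes, 18 of 20 measured genes of differentiating neurons fell, or 16 among genes that reached 8.45 in both groups, with a median change of −0.57. Examples are the proneural genes neurod4 (−1.46 ± 0.06) and neurod1 (−1.45 ± 0.10, its direction fixed by the filter) and the zinc finger gene insm1a of newborn neurons (−1.33 ± 0.07, SE). The mean level of this list was 10.15 to 10.21 on setb MO1 arrays and 10.86 to 10.92 on control arrays. Beside the SoxB genes, 7 of 17 genes of neural progenitors and radial glia fell and 4 rose, with a median of −0.24, and the share that rose was near that over all genes. Those with the smallest p were the fatty acid binding protein gene fabp7a (−1.62 ± 0.13), the eye and brain factor gene pax6b (−0.96 ± 0.08) and the glutamate transporter gene slc1a3b (−1.0 ± 0.12) among the lower. Among the higher they were zic2a (0.41 ± 0.08) and the Notch-related repressor genes her9 (0.65 ± 0.14) and her6 (0.38 ± 0.10). The number that rose was 2 without control replicate 2. The mean level of the list was 10.83 to 10.84 on setb MO1 arrays and 11.04 to 11.19 on control arrays.

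Beside the Pou4 genes, 7 of 12 measured genes of retinal ganglion cells, sensory neurons and hair cells fell and 1 rose, with a median of −0.35, and 5 fell among genes that reached 8.45 in both groups. They included atoh7, which specifies retinal ganglion cells (at 5.35 to 5.58 in setb MO1 embryos, near the arrays' lowest values, so that its difference of −3.35 may understate the change, in a direction that the filter fixed), and islr2 (−0.80 ± 0.08) and isl1a (−0.62 ± 0.07), expressed in ganglion cells and sensory neurons, and the gene that rose was atoh1a of hair cell precursors (0.53 ± 0.13). The mean level of the list was 9.07 to 9.17 on setb MO1 arrays and 9.61 to 9.65 on control arrays. This mean includes atoh7, with the largest change of the list, and isl2b and prph, which reached 8.45 in control embryos alone. Beside the Pou3 genes, 5 of 9 measured hypothalamus genes fell and 4 did not pass, with a median of −0.44. The homeobox genes otpb (−1.75 ± 0.12) and otpa (−1.65 ± 0.14), needed for neuroendocrine neurons, and the forebrain gene fezf1 (−1.07 ± 0.09, its direction fixed by the filter) had the smallest p. Counting only genes that reached 8.45 in both groups left 3 lower. The mean level of the list was 9.34 to 9.40 on setb MO1 arrays and 9.97 to 10.02 on control arrays.

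Beside the SoxD and SoxE genes, of 12 measured cartilage genes 2 fell and 10 did not pass, with a median of 0.13. Those that fell, as sox5, sox9a and sox9b did, were the pharyngeal arch gene barx1 (−0.90 ± 0.11) and the collagen gene col9a1a (−0.93 ± 0.14, its direction fixed by the filter). The median, which lies among changes that did not pass, was opposite in sign to the changes of sox5, sox6, sox9a and sox9b. It had the sign of the change of sox10, which did not pass, as that of sox6 did not. The main collagen of cartilage, col2a1a, known as a target of Sox9, was at 0.15 ± 0.08 and did not pass. Without control replicate 1 or 3, 1 cartilage gene also rose, and 1 rather than 2 fell among genes that reached 8.45 in both groups. The mean level, with col9a1a included, was 9.77 to 9.85 on setb MO1 arrays and 9.84 to 9.90 on control arrays. Of 13 measured genes of neural crest, pigment and oligodendrocytes, 3 fell and 3 rose, with a median of −0.06, shares near those over all genes. The oligodendrocyte lineage gene olig2 (−0.56 ± 0.07), the tyrosinase gene tyr (−0.35 ± 0.08) and tfap2a (−0.24 ± 0.07) fell. The myelin gene mbpb (0.37 ± 0.06) and the snail genes snai1b (0.68 ± 0.16) and snai2 (0.29 ± 0.09) rose. The mean level was 10.58 to 10.62 on setb MO1 arrays and 10.58 to 10.68 on control arrays.

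Beside sox18, 7 of 18 measured endothelium genes rose and 2 fell, with a median of 0.22. Among genes that reached 8.45 in both groups, with p-values adjusted over these genes alone, 5 rose and 1 fell. That adjustment cost the call on pecam1a (limma adjusted p = 0.0499 over all genes), which was above 8.45 on every array. The scavenger receptor genes stab1 (0.52 ± 0.08) and stab2 (0.73 ± 0.13) and the Ets factor gene etsrp (0.59 ± 0.11, its direction fixed by the filter) rose, and tal1 (−0.78 ± 0.13), a factor of blood and vessels whose direction the filter fixed, and fli1 (−0.31 ± 0.10) fell. With control replicate 2 left out 3 rose, and with setb MO1 replicate 3 left out 4 rose, and 1 fell when any of the setb MO1 arrays was left out. The mean level was 9.28 to 9.39 on setb MO1 arrays and 9.14 to 9.16 on control arrays. Of the pituitary list, set beside pou1f1, only the prolactin gene prl (0.58 ± 0.08, higher, and at 8.45 or above on 1 setb MO1 array alone) and pitx1 (−0.10 ± 0.09) were measured, and pou1f1 was not analysed here. The part of the listed tissues in those changes was likewise not tested.

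**Figure D4:**
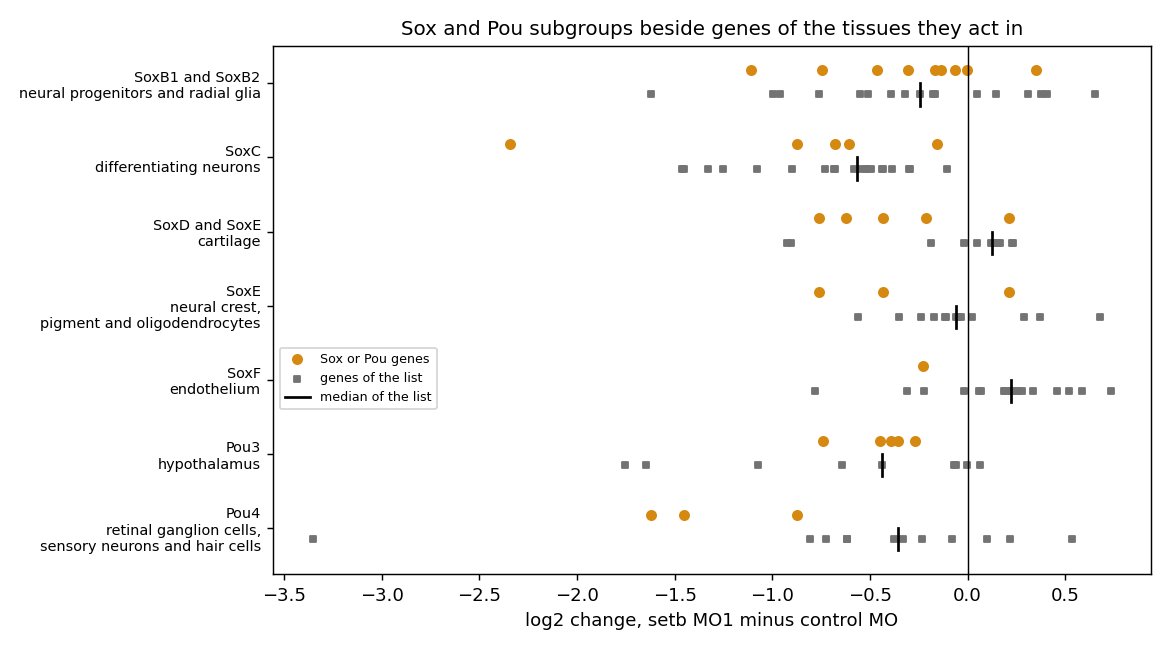
Log2 change, setb MO1 minus control, of the Sox or Pou genes of each subgroup (circles) and of the genes of the list set beside it (squares), with the median of the list as a bar. Genes of differentiating neurons all lie to the left of 0, as do the SoxC genes, while the median of the endothelium list lies at 0.22. Over all genes 47.1% had a negative change. Among these neuron genes the table's filter fixed the direction of neurod1 and snap25b, and sox12 of SoxC was known beforehand. The filter also fixed the direction of some genes in the other rows, among them pou4f2, sox14, sox21b and pou3f1.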

How the data were processed

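Total RNA of 6 zebrafish samples was hybridised to Affymetrix arrays after biotin labelling. Each deposited value is a probe set's log2 intensity, and RMA is the method named in the submitters' processing notes. For its version, the software and the filter on dim probe sets, the sources used here give nothing. Groups and replicate numbers come from the titles. Of 15726 probe sets, 11738 had 1 symbol in the platform annotation, and these gave 11304 genes, each taken from its brightest probe set. Of the 11738, 11497 matched RefSeq's genes of assembly GRCz12tu by Entrez identifier, a table used for names and gene order only.

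All probe sets were fitted with limma 3.58.1 in R 4.3.3 (lmFit and eBayes, two-sided), and p-values were adjusted over all genes by Benjamini-Hochberg at 0.05. Changes are setb MO1 minus control. Within-array differences of 1252 pairs of genes were fitted in the same way. These pairs were chosen only by symbols that differ in a final a and b. The fits were also run on simulated data with independent noise and far fewer changed genes than were called here. That run does not measure the error rates in these data. Members, lists and tests were chosen with earlier results of these data known. All members are named, and of each list up to 3 called genes with the smallest p in either direction, while col2a1a was named after its value was seen. Alternatives covered normalization, filters, priors, array weights, a replicate block, thresholds, probe set choice and leaving out each array. No sequences of the members are shown. No scan dates were given in the sources used here.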

Additional observations from a re-analysis of the deposited data

How the results depend on the processing

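Of the 20 Sox and Pou genes that fell, 18 kept their call under every alternative that tested them, of at most 22, the exceptions being pou3f2a and sox19b. Neither of the 2 that rose did so. The 18 include pou4f2, sox14, sox21b and pou3f1, whose direction the table's filter fixed. Each of these was tested under 19 alternatives, because those limited to brighter genes left them out. Their kept direction is therefore no sign of stability. Among the 32 genes the number lower was 18 to 24 and the number higher 0 to 2 when single arrays were left out. Among only those members at or above the median level, whose number is not given, 11 were lower and 0 higher. The number higher was also 0 at a threshold of 0.01 and without moderation of the variances. Over all genes 1690 to 2317 were lower and 1833 to 2697 higher without single arrays. There were 1047 lower and 1296 higher at or above the median level, 1515 lower at or above the 30th percentile, 1454 lower and 1586 higher at 0.01, and 4173 higher with array weights. These weights rested on control replicate 2 (58.9 against 0.207 to 0.803), and their estimate did not converge. They also brought sox3, sox4b, sox6, sox10, pou3f2b and pou3f3a past the threshold. Of all pairs of symbols that differ only in a final a and b, 379 to 595 differed without single arrays. With array weights 869 did, and 320 at 0.01. Of the 8 Sox and Pou pairs 2 to 5 differed without single arrays and 2 at 0.01. These counts of Sox and Pou pairs include sox21a and sox21b. Smaller counts under stricter thresholds or with fewer genes or arrays follow from the setting, and the other causes were not tested. Same-numbered samples of the groups deviated with correlations of 0.07, −0.36 and 0.36, and differently numbered samples with −0.38 to 0.40. With 3 arrays in each group these values cannot tell whether same-numbered samples belong together. With the replicate block 21 members were lower and 2 higher, with pou3f2b now past the threshold (adjusted p = 0.0103), and no other member changed its call, while the difference of setb no longer passed (0.0853). Without single arrays the change of sox2 ranged between −0.11 and 0.093, positive without control replicate 2 (0.02) or 3 and without setb MO1 replicate 1 (0.03) or 2 (0.07). The pair difference of sox11 ranged between −0.021 and 0.14, negative without control replicate 1 (−0.000877) or setb MO1 replicate 3, and that of pou3f2 between −0.075 and 0.11, negative without setb MO1 replicate 1, all without a call. With the variance prior from the genes alone, an alternative chosen after seeing the data, 21 members were lower.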

Other observations

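Genes next to the Sox and Pou genes on the chromosome, were taken in the order of RefSeq's protein-coding genes. Beside the 20 members that fell, 19 neighbours were measured for 14 of them, of which 4 fell and 4 rose, shares near the 20.8% and 23.9% over all genes. The measured neighbour of sox12, the phosphorylase gene pnp4a, changed by −0.15 and did not pass, and pcdh9, next to pou4f1, fell by 1.17 on the log2 scale, both named after their values were seen. A probe set that carries pou2f1a together with a second symbol was left out of the families. It was at 9.46, 9.46 and 9.32 in setb MO1 embryos and at 9.46, 9.13 and 8.91 in control embryos, a difference of 0.25 ± 0.14 (SE, limma adjusted p = 0.176 over all probe sets).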
